A study of Mus musculus with 8 samples.

Results

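The Slc16 genes described here are 9 members of the monocarboxylate transporter family, Slc16a1, Slc16a3, Slc16a6, Slc16a7, Slc16a9, Slc16a10, Slc16a12, Slc16a13 and Slc16a14, out of 20659 gene symbols that could be assigned to probes on the array. They were found by matching the RefSeq transcript of each probe to these symbols. All 9 were present, with 14 probes, and all 14 were bright enough on at least 3 arrays to enter the fit. The members were chosen by family, with the NPRA-/- against NPRA+/+ differences of Slc16a7 and Slc16a14 on these same arrays known, so the genotype values of its members are given as a description. Counts of member probes past the threshold of the fit over all probes are printed beside the share of all probes, and are no test of the family. The arrays measured myocardium, the muscle of the heart, from untreated male mice. The first group, NPRA-/- (3 arrays), is described as a heart-restricted deletion in the series title and comes from a line carrying a floxed allele of the natriuretic peptide receptor NPRA. The second group, NPRA+/+ (5 arrays), is labelled as wild type. The Cre driver, the age of the mice and whether NPRA+/+ mice carried a floxed allele or Cre were not known for the work described here.

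SLC16 proteins are membrane carriers with a common fold. The best known of them, MCT1 (Slc16a1), MCT2 (Slc16a7) and MCT4 (Slc16a3), move lactate, pyruvate or ketone bodies across the plasma membrane together with a proton, and need an accessory glycoprotein, basigin or embigin, to reach the surface. The heart takes up lactate as a fuel, and MCT1 is regarded as its main carrier. Other members carry different cargo, among them aromatic amino acids and thyroid hormone (Slc16a10) and creatine (Slc16a12), and some have no settled substrate.

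Levels are log2 signals relative to the 75th percentile of the same array. They can be compared between arrays for 1 probe but not between probes. Changes are NPRA-/- minus NPRA+/+ on the same scale, as fitted by limma, with their SE. Between 79.5% and 92.6% of all probes were well above background on each array, and precision is limited by how few arrays there are. The markers of cardiomyocytes were well above background on every array for 9 of 9 genes. Npr1, the targeted gene, did not separate the labels: its dim probe was at -6.42, -5.53 and -5.59 on the NPRA-/- arrays and at -4.77, -6.14, -6.55, -6.00 and -5.93 on the NPRA+/+ arrays. The position of that probe against the deletion was not known, so directions rest on the labels. Replicate 1 of each genotype stood apart from the other arrays on the first principal component (47.3% of the variance). Only scan day 1 held both genotypes, with replicates 2 and 3 of each. Over all 35329 probes tested the median change was 0.21, and it fell with signal, being 0.63 in the dimmest and 0.05 in the brightest of 5 groups of equal size.

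Slc16a7 encodes MCT2, a carrier with high affinity for lactate and pyruvate. Its single probe was bright on all 8 arrays and was lower on the arrays labelled NPRA-/-. The levels were 2.25, 3.33 and 2.84 in NPRA-/- replicates 1 to 3, against 4.84, 4.36, 4.45, 4.61 and 5.04 in NPRA+/+ replicates 1 to 5. The highest NPRA-/- array lay below the lowest NPRA+/+ array, and NPRA-/- replicate 1 was the lowest of all. Before scaling, the processed intensities were 3685, 9873 and 6525 in NPRA-/- and 31018, 16973, 17086, 30532 and 36192 in NPRA+/+ samples. The mean level was 2.81 ± 0.54 (SD, n = 3) in NPRA-/- and 4.66 ± 0.28 (SD, n = 5) in NPRA+/+ samples, a fitted change of -1.85 ± 0.26, or 3.62-fold lower. The median change of the brightest group of probes, to which it belongs, was 0.05. In bulk tissue, fewer cells of a type and less RNA per cell cannot be told apart.

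**Figure D1:**
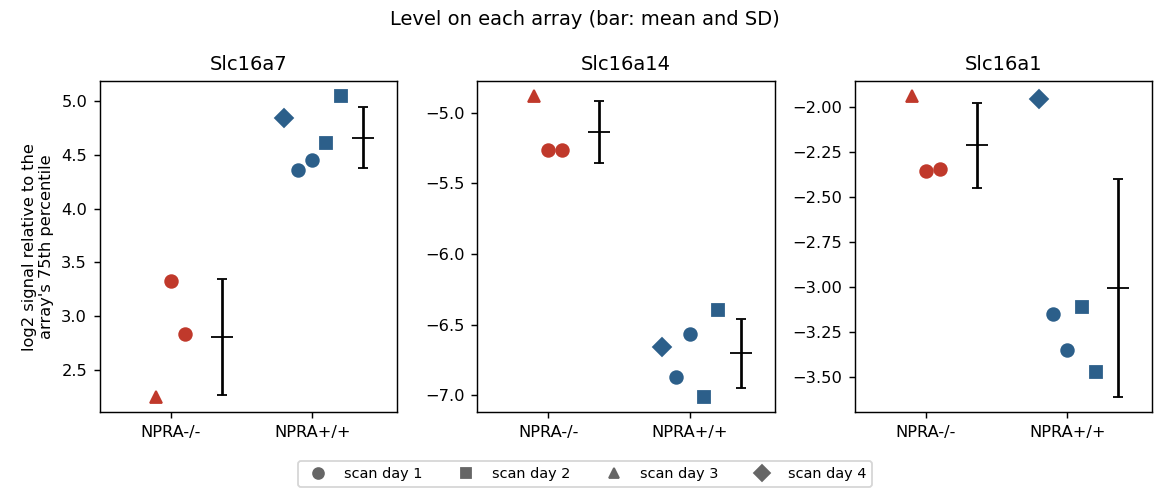
Level of Slc16a7, Slc16a14 and Slc16a1 on each array, as log2 signal relative to the array's 75th percentile, with NPRA-/- arrays left of NPRA+/+ arrays, marker shapes for the scan day, and the mean and SD beside each group. For Slc16a7 and Slc16a14 the genotypes do not overlap, and for Slc16a1 NPRA+/+ replicate 1 (-1.96) sits with the NPRA-/- arrays.

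The size of the Slc16a7 difference varied with the arrays compared, and its direction did not under any of the 23 alternatives. As the genotypes did not overlap, leaving out or averaging arrays could not change that direction, so its constancy there is no support. Within scan day 1 the mean was 3.08 in NPRA-/- and 4.40 in NPRA+/+ samples, a change of -1.32 ± 0.19. Without NPRA-/- replicate 1 it was -1.58, and without replicate 1 of both genotypes -1.53. It was -1.96 ± 0.33 after quantile normalization, -2.13 with scaling to the median and -2.03 in the deposited series table. With the replicate number as a block it was -1.74 ± 0.33 by repetition number and -1.98 ± 0.24 by source name number.

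Slc16a14 encodes a family member whose substrate is not settled. Its single probe was dim and was higher on the arrays labelled NPRA-/-. The level was -4.88, -5.26 and -5.27 in NPRA-/- replicates 1 to 3, while it was -6.66, -6.87, -6.57, -7.02 and -6.40 in NPRA+/+ replicates 1 to 5. The genotypes did not overlap, and the probe was well above background on 3 of 3 NPRA-/- arrays but on 1 of 5 NPRA+/+ arrays, replicate 3. It thus met the filter of 3 arrays through the NPRA-/- group, and the size of its change rests on NPRA+/+ signals that were mostly not well above background. The processed intensities behind these levels were 26.3, 25.6 and 23.7 in NPRA-/- against 10.7, 7.06, 8.25, 9.68 and 13.0 in NPRA+/+ samples. The fitted change was 1.57 ± 0.18, from -5.14 ± 0.22 (SD, n = 3) in NPRA-/- and -6.70 ± 0.25 (SD, n = 5) in NPRA+/+ samples. Dim probes in general were higher in NPRA-/- samples: the dimmest of the 5 groups, to which Slc16a14 belongs, had a median change of 0.63. Set against that median, the change of Slc16a14 was 0.94. In that group 280 of 7065 probes (3.96%) had a change at least as high as that of Slc16a14. The fitted change of Slc16a14 was 0.91 ± 0.17 after quantile normalization, 0.85 ± 0.28 with normexp background correction, 1.46 ± 0.14 within scan day 1 and 0.89 ± 0.08 with both quantile normalization and scan day 1 alone.

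Of the 9 genes, 6 had a start region in the RefSeq table of GRCm38.p6, which held none for Slc16a7, Slc16a6 or Slc16a13. The 250 bases before the start of Slc16a14 (chr1:84935084-84935333, minus strand) and of Slc16a1 (chr3:104638414-104638663, plus strand) are shown because these members had the 2 highest changes of the family. Capitals mark the E-box CACGTG, the GC box GGGCGG and the cyclic AMP response element TGACGTCA, searched on both strands.
Slc16a14: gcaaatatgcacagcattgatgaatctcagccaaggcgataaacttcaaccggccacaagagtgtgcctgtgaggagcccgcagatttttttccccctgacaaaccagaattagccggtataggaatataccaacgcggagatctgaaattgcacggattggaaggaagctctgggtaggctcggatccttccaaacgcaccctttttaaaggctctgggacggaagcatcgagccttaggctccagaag
Slc16a1: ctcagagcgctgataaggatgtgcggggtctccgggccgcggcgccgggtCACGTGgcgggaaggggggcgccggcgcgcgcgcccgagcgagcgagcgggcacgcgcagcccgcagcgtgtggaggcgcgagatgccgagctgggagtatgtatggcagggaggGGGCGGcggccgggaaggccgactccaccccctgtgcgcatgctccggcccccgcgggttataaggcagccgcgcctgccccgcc
The Slc16a14 window held none of these motifs, and 198 of its bases fall within the annotated span of the gene. The Slc16a1 window held 1 E-box and 1 GC box, with a GC content of 76.4% against 50.4% for Slc16a14. An E-box was in 6.02%, a GC box in 32.7% and the cyclic AMP element in 1.55% of 32851 such windows. Among the other members, the Slc16a12 window held 1 E-box, those of Slc16a9 and Slc16a10 held 3 GC boxes each, and that of Slc16a3 held 1 GC box. The letters ACGTG, the core of the hypoxia response element, were in 16.6% of all windows. Counting both strands, they occurred at 2 positions each in the Slc16a1, Slc16a3 and Slc16a12 windows. In the Slc16a1 and Slc16a12 windows both positions lie within the 1 E-box, which reads the same on both strands, so they are 1 site. In the Slc16a3 window the 2 positions are separate. All 250 bases of the Slc16a3 window and 165 of the Slc16a12 window lie within the annotated gene span. These matches describe the letters in the window and no binding.

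Slc16a1 encodes MCT1, the carrier for lactate and pyruvate found in most tissues. Its probe was at -1.94, -2.36 and -2.35 on the NPRA-/- arrays, and at -1.96, -3.15, -3.35, -3.11 and -3.47 on the NPRA+/+ arrays, in the order of the replicates. NPRA+/+ replicate 1 lay with the NPRA-/- arrays and the other 4 NPRA+/+ arrays lay below all 3 of them, so the genotypes overlapped through 1 array. The fitted change was 0.79 ± 0.34, from -2.21 ± 0.24 (SD, n = 3) in NPRA-/- and -3.01 ± 0.61 (SD, n = 5) in NPRA+/+ samples. It was 1.06 ± 0.16 without NPRA+/+ replicate 1, 0.90 ± 0.11 within scan day 1 and 0.53 ± 0.27 after quantile normalization.

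Slc16a3 encodes MCT4, the carrier by which glycolytic cells export lactate. Its brighter probe was at -0.70, -1.10 and -1.0 in NPRA-/- replicates and at -1.07, -1.70, -1.71, -1.22 and -1.40 in NPRA+/+ replicates. Only NPRA+/+ replicate 1 reached into the NPRA-/- range on this probe. Its second probe was at -0.93, -1.47 and -1.09 in NPRA-/- replicates and at -1.32, -1.70, -1.69, -1.45 and -1.66 in NPRA+/+ replicates. On that probe NPRA+/+ replicates 1 and 4 lay within the NPRA-/- range. The 2 probes gave changes of 0.49 ± 0.19 and 0.40 ± 0.17, and correlated by 0.93 over the 8 arrays. Both were positive under each of the 23 alternatives, at 0.21 and 0.13 with scaling to the median. Slc16a1 and the brighter Slc16a3 probe correlated by 0.84 over the same arrays, some of which share scan times and scan days.

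Slc16a6, whose zebrafish counterpart exports the ketone body beta-hydroxybutyrate from the liver, gave different pictures with its 2 probes. The brighter was at 1.48, 1.31 and 1.24 in NPRA-/- replicates and at 0.91, 1.28, 1.07, 1.52 and 1.16 in NPRA+/+ replicates. These ranges overlapped, with a change of 0.16 ± 0.16 that turned to -0.12 with scaling to the median. The dim probe was at -7.25, -5.52 and -5.40 in NPRA-/- and at -4.26, -5.00, -5.68, -4.78 and -4.25 in NPRA+/+ replicates. It was not well above background in NPRA-/- replicate 1, and its change of -1.26 ± 0.49 was -0.67 without that array, -0.12 within scan day 1 and 0.18 with normexp. The 2 probes, assigned to the same transcript, correlated by -0.51 over the arrays.

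Slc16a10 encodes TAT1, also called MCT10, which carries aromatic amino acids and thyroid hormone, and its probes are assigned to 2 transcripts. The brighter probe was at -1.06, -0.49 and -0.82 in NPRA-/- and at -1.0, -1.49, -1.56, -0.83 and -0.81 in NPRA+/+ replicates. Its change was 0.35 ± 0.24 over all arrays and 0.87 ± 0.14 within scan day 1, since the low NPRA+/+ replicates 2 and 3 were those scanned on that day. The second probe changed by 0.10 ± 0.24, and by -0.18 with scaling to the median.

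Slc16a12, whose human and rat proteins carry creatine, was at -2.56, -3.07 and -3.09 in NPRA-/- and at -2.87, -2.97, -2.62, -3.24 and -3.14 in NPRA+/+ replicates, with overlapping ranges. Its change of 0.07 ± 0.19 was -0.23 after quantile normalization. Slc16a9, tied to carnitine in human studies, changed by 0.00 ± 0.18 with its brighter probe and 0.10 ± 0.31 with its dimmer one. These were -0.21 and -0.43 after quantile normalization, and the 2 probes correlated by 0.04.

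Slc16a13 encodes another carrier of the family, and its gene neighbours Slc16a11. Its brighter probe was at -2.62, -2.41 and -2.54 in NPRA-/- replicates and at -2.20, -2.06, -2.00, -2.44 and -2.15 in NPRA+/+ replicates. Only NPRA+/+ replicate 4 reached into the NPRA-/- range. The change was -0.35 ± 0.14, negative under each of the 23 alternatives, and -0.06 with normexp. The second probe changed by 0.10 ± 0.19 and by -0.30 after quantile normalization. The 2 probes, assigned to the same transcript, correlated by 0.05 over the 8 arrays. The negative change is thus that of the brighter probe and gives no settled direction for the gene. Slc16a11, not among the 9, was at -0.86, -1.31 and -1.35 in NPRA-/- and at -1.31, -1.69, -1.67, -1.85 and -2.12 in NPRA+/+ replicates, a change of 0.55 ± 0.21 (limma, adjusted p = 0.195).

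**Figure D2:**
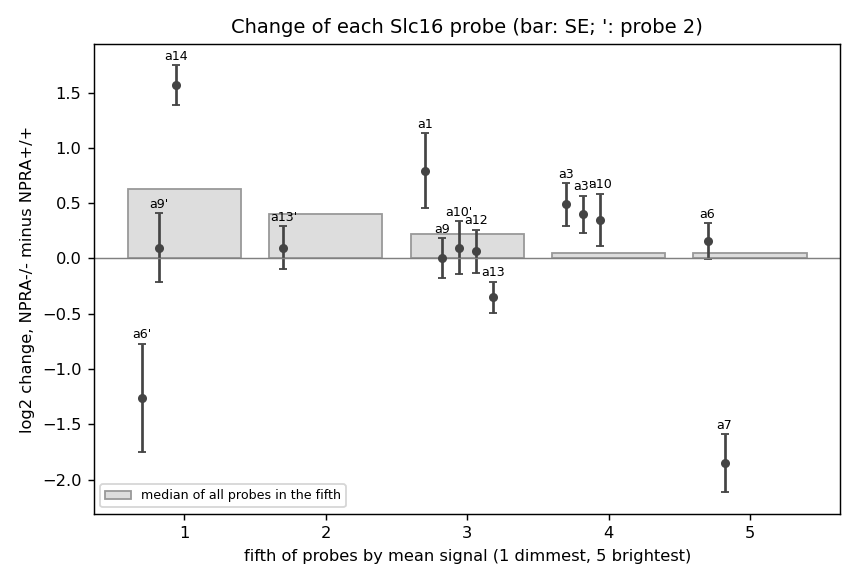
Fitted log2 change (NPRA-/- minus NPRA+/+, bar: SE) of each of the 14 probes (a prime marks probe 2 of a gene), placed by which of 5 equal groups of tested probes, by mean signal, it belongs to, with grey bars for the median change of that group. Slc16a7 lies far below the median of the brightest group (0.05), and Slc16a14 above that of the dimmest (0.63).

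Across the family 11 of the 14 probes had a positive and 3 a negative fitted change, and relative to the median of all probes (0.21) 5 lay above and 9 below. The median over the 14 was 0.10. The fit over all probes placed 2 of the 14 past an adjusted p of 0.05 (limma). These were the Slc16a7 probe at 0.0498 and the Slc16a14 probe at 0.0453, both close to the threshold. Among all probes 123 of 35329 (0.348%) passed, 0.32% higher and 0.0283% lower. Of the 14, only the Slc16a14 probe (higher) and the Slc16a7 probe (lower) had genotypes that did not overlap. Among all probes 15.4% did not overlap, 14.1% higher and 1.28% lower. As the contrast was used to choose the family, nothing is read from these counts. When samples were paired by repetition number or by source name number, 0 of the 14 passed, against 0% and 0.0623% of all probes. Without NPRA+/+ replicate 1 the Slc16a1 probe passed beside the other 2, among 11.6% of all probes, and without replicate 1 of both genotypes these 3 passed among 11.7%. On scan day 1 alone 5 passed among 16.9%, and with no filter on dim probes 2 among 0.49%. With only probes above background on all arrays 0 passed among 0.0102%, and Slc16a7 was at an adjusted p of 0.0524 (limma).

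**Figure D3:**
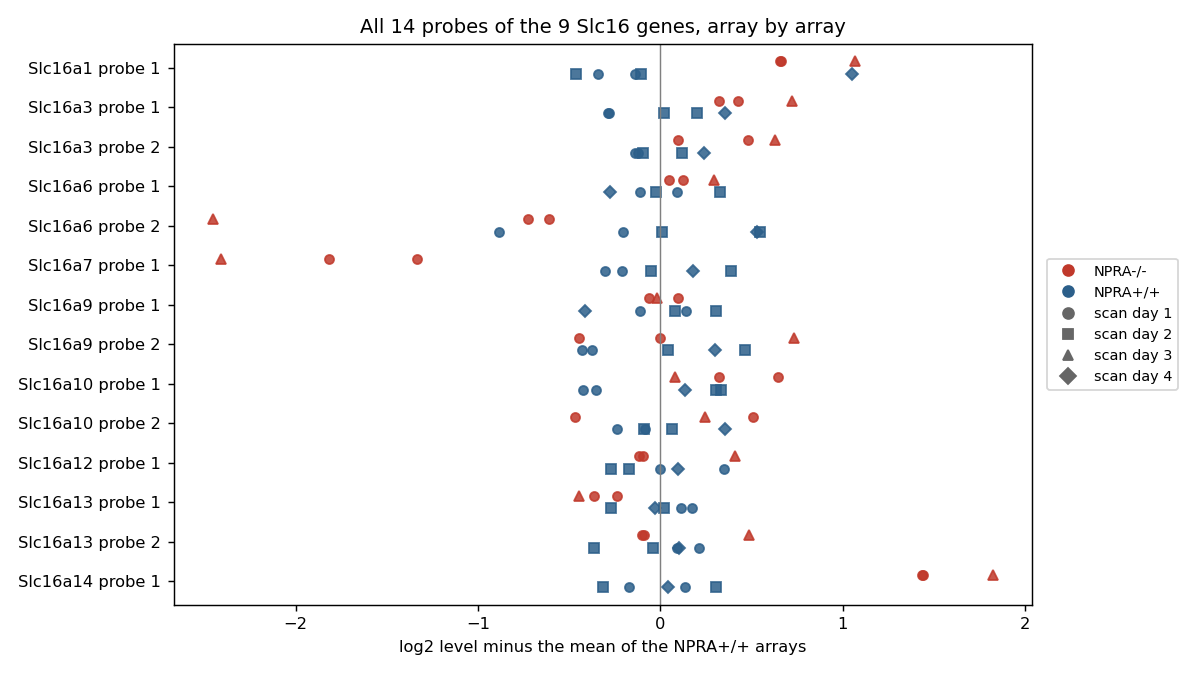
Log2 level of each Slc16 probe on each array minus the mean of the NPRA+/+ arrays, with NPRA-/- arrays drawn above NPRA+/+ arrays and marker shapes for the scan day. Slc16a7 on the left and Slc16a14 on the right separate fully, while the Slc16a6 dim probe has 1 far value in NPRA-/- replicate 1 (level -7.25).

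On scan day 1, the day with both genotypes, 2 arrays of each could be compared. There 5 probes were higher and 4 lower without overlap, against 66.8% of all probes (50.4% higher and 16.4% lower), so such separation was common between these arrays. The higher ones were Slc16a1, both Slc16a3 probes, the brighter Slc16a10 probe and Slc16a14. The lower ones were Slc16a7, Slc16a12 and both Slc16a13 probes. On that day the NPRA-/- arrays shared 1 scan time and the NPRA+/+ arrays another, read here as separate slides. Slide and genotype therefore cannot be told apart within it.

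**Figure D4:**
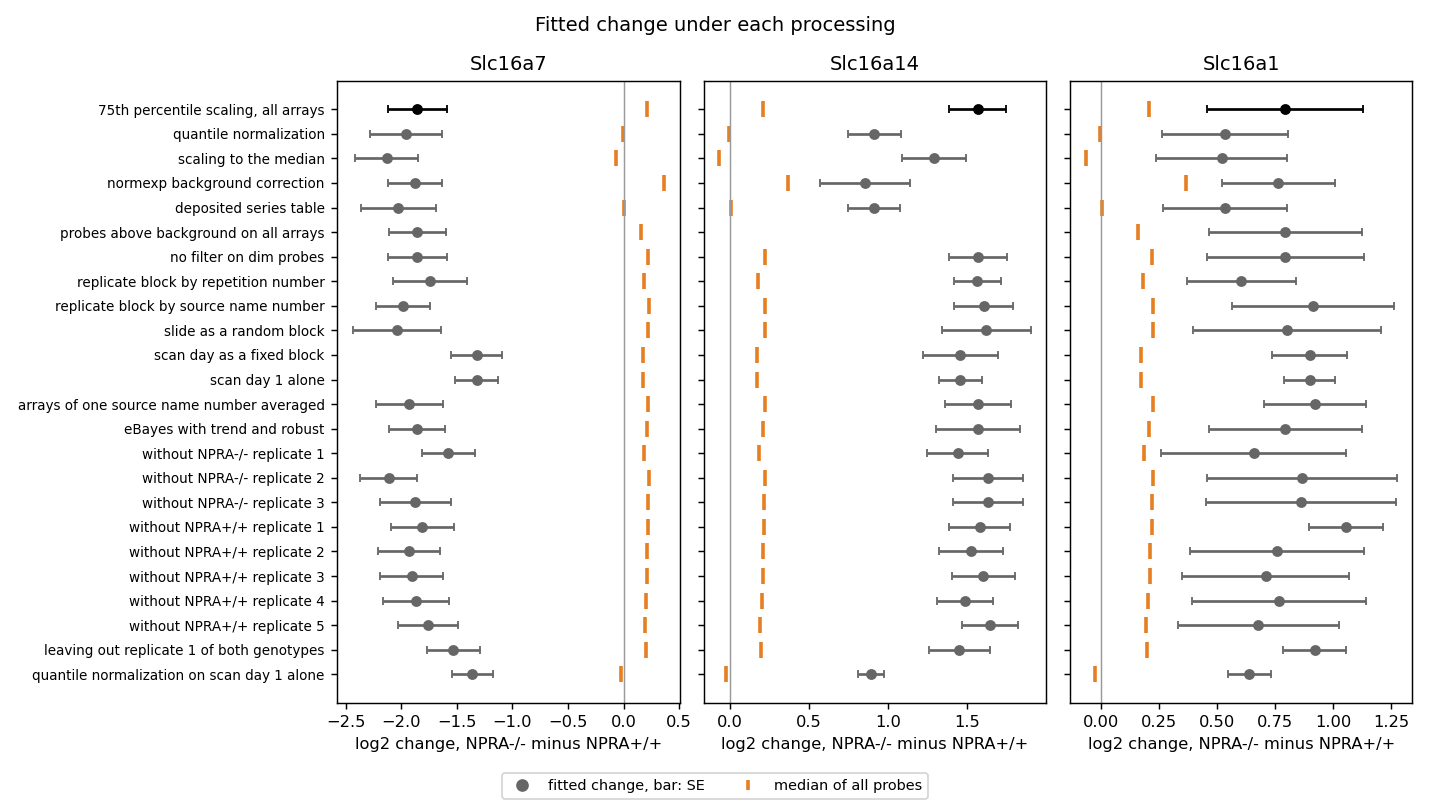
Fitted log2 change (NPRA-/- minus NPRA+/+, bar: SE) of Slc16a7, Slc16a14 and Slc16a1 under each processing, with an orange mark for the median change of all probes. Slc16a7 stays between -2.13 and -1.32, Slc16a14 between 0.85 and 1.64 and Slc16a1 between 0.52 and 1.06.

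The genes whose levels over the 8 arrays were most like those of Slc16a7, ranked by Pearson's r among 17859 genes, were Fbn2 (0.99), Nhlh1 (0.98), Ccdc169 (0.98), Cd300a (0.97) and Ppp1r8 (0.97). Fbn2 encodes fibrillin 2, a microfibril protein, and Ppp1r8 a regulatory subunit of protein phosphatase 1. Their fitted changes were -0.79, -1.28, -1.02, -1.11 and -2.31 in that order. That all were lower in NPRA-/- samples follows from the ranking, since Slc16a7 itself separated the genotypes on these arrays. An r over 0.9 was reached by 52 genes with Slc16a7, by 218 with Slc16a14 and by 1098 with Slc16a1. Over the whole array, too, fewer probes were lower than higher in NPRA-/- samples without overlap, 1.28% against 14.1%. The genes most like Slc16a1 were Doc2a, Meltf, Il9r, Zc2hc1c and Fan1, each at an r of 0.99. Of the genes most like Slc16a14, which were Pyroxd2 (0.98), Tdpoz3 (0.98), Glra1 (0.98), Slc6a20b (0.97) and Taar7d (0.97), only Tdpoz3 and Slc6a20b kept an r over 0.9 after quantile normalization (0.97 and 0.94).

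Partners and pathways of these carriers were read from lists of 76 genes in all, of which 74 were measured. The median change with 1 probe per gene was 0.16 over all genes and 0.08 over the 74. Of the 74, 0 passed higher and 1 lower (limma, adjusted over all probes), with 4 and 1 at an unadjusted p under 0.05, where 19.7% of all probes stood (18.3% higher and 1.36% lower). These shares, and those for overlap below, cover all tested probes, including second and dim ones. The lists take the brightest probe per gene, so the shares are not a like reference for them. The 1 past the threshold was Tg, thyroglobulin, listed with its earlier result known and close to the threshold (limma, adjusted p = 0.04998). Tg was at -1.04, -0.86 and -0.76 in NPRA-/- replicates and at 1.23, 0.62, 0.69, 1.66 and 1.92 in NPRA+/+ replicates.

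The accessory proteins showed no call (limma, 0 of 6 measured partners and other monocarboxylate carriers, and 0 at an unadjusted p under 0.05). Bsg, basigin, the partner of MCT1 and MCT4, changed by -0.16 ± 0.16 (adjusted p = 0.626), and Emb, embigin, the partner of MCT2, by 0.36 ± 0.25 (adjusted p = 0.472). Nptn, neuroplastin, a relative of basigin, changed by -0.47 ± 0.26 (adjusted p = 0.366), and Slc5a8, a sodium-coupled monocarboxylate carrier, by 0.46 ± 0.30 (adjusted p = 0.439). After quantile normalization Emb was at 0.05 and Slc5a8 at 0.02.

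None (0) of the 17 enzymes of lactate and pyruvate passed with limma, and 0 were at an unadjusted p under 0.05, with a median of 0.04. Ldha and Ldhb, the subunits of lactate dehydrogenase, changed by 0.37 ± 0.29 and 0.45 ± 0.35, and by -0.11 and 0.06 after quantile normalization. Pdk4, a kinase that turns off pyruvate dehydrogenase, changed by -0.54 ± 0.24 (adjusted p = 0.260), and Dld and Dlat, subunits of that complex, by 0.30 ± 0.17 and 0.28 ± 0.16, the Dlat fit lacking 1 flagged NPRA+/+ value. After quantile normalization Pdk4 changed by -0.82 and Dld by 0.12. Among 8 ketone body genes, 0 passed (limma, 1 higher at an unadjusted p under 0.05), the median being 0.43. Bdh2 changed by 0.52 ± 0.13 (adjusted p = 0.101), higher in all 3 NPRA-/- samples than in all 5 NPRA+/+ samples. It was 1 of 2 ketone body genes higher without overlap. Over all lists 3 of 74 genes were higher and 2 lower without overlap, against 14.1% and 1.28% of all probes. Oxct1, the first enzyme of ketone body use, changed by 0.44 ± 0.24 (adjusted p = 0.354) and Aacs by 0.45 ± 0.26 (adjusted p = 0.383). After quantile normalization Bdh2 was at 0.30 and Oxct1 at 0.18.

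Of the 15 genes of thyroid hormone transport and action, 1 passed, Tg, while 2 were higher at an unadjusted p under 0.05. These were Crym, a cytosolic binder of thyroid hormone, at 0.64 ± 0.23 (adjusted p = 0.177), and Slco1c1, a thyroxine carrier, at 0.99 ± 0.40 (adjusted p = 0.225), with 0.22 and 0.52 after quantile normalization. In the thyroid marker list the summed level, in multiples of the array's 75th percentile, was 0.780 to 1.11 in NPRA-/- and 1.85 to 4.02 in NPRA+/+ samples. Without Tg it was 0.293 to 0.531 in NPRA-/- and 0.230 to 0.314 in NPRA+/+ samples. Of 7 creatine genes, 9 carnitine and taurine genes and 8 glucose uptake genes, 0 passed, with 0 at an unadjusted p under 0.05 (limma). Their medians were 0.09, 0.04 and 0.09. Ckb, brain creatine kinase, changed by 0.39 ± 0.20 (adjusted p = 0.316). Ckmt2, the mitochondrial creatine kinase of muscle, changed by 0.52 ± 0.38 and Slc6a8, the creatine transporter, by 0.20 ± 0.17. Cdo1 changed by 0.50 ± 0.34, Slc6a6, the taurine transporter, by 0.30 ± 0.20 and Csad by -0.21 ± 0.15. Quantile normalization left 0.08 for Ckmt2, 0.12 for Slc6a8 and 0.13 for Cdo1. Slc2a4, the insulin-responsive glucose transporter, changed by 0.27 ± 0.17, Hk2, a hexokinase, by 0.16 ± 0.13 and Pfkfb1 by -0.26 ± 0.26, the first and second turning to -0.02 and -0.01 after quantile normalization. Among the remaining 5 Slc16 genes of the array 0 passed (limma, 1 at an unadjusted p under 0.05, Slc16a11), and the others by p were Slc16a8 at 0.44 ± 0.25 (0.07 after quantile normalization) and Slc16a4 at -0.36 ± 0.21 (-0.75).

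Markers of some other cell types differed between the genotypes beside these values, where 14.1% of all probes were higher and 1.28% lower without overlap. For mesothelial genes the summed level was 1.24 to 1.82 in NPRA-/- and 0.696 to 1.03 in NPRA+/+ samples, and 4 of 7 measured genes were higher without overlap. Msln alone passed the threshold, closely (limma, adjusted p = 0.0498). Of these 4, Upk3b, Krt19 and Lrrn4 were above background on 3 of 3 NPRA-/- arrays but on 1, 2 and 2 of 5 NPRA+/+ arrays, so they met the filter through NPRA-/-, while Msln was above it on all 8 and Krt8 on none (0). For fibroblast genes it was 103.8 to 134.3 in NPRA-/- and 91.0 to 96.5 in NPRA+/+ samples, with 1 of 7 genes higher without overlap, Col1a1, a share near that of all probes. Cardiomyocyte genes ranged from 727.8 to 1859 in NPRA-/- and from 384.3 to 1484 in NPRA+/+ samples, and endothelial genes from 34.5 to 43.3 in NPRA-/- and from 34.8 to 49.3 in NPRA+/+ samples. The sums of the other 7 lists, apart from the thyroid list above, overlapped between the genotypes (skeletal muscle, smooth muscle and pericyte, macrophage, neutrophil, adipocyte, Schwann and nerve, and erythroid genes). Within them S100a8 and S100a9, which neutrophils carry in abundance, were higher without overlap, by 1.06 ± 0.26 and 1.04 ± 0.20, 2 of 5 measured neutrophil genes. The other measured genes of that list overlapped, Csf3r at 0.13 ± 0.15, Cxcr2 at 0.43 ± 0.34 and Retnlg at 0.33 ± 0.22. The sum of the neutrophil list is set mostly by Csf3r. In the skeletal muscle, smooth muscle and erythroid lists 1 gene each was higher without overlap, and in the macrophage, adipocyte and Schwann lists 0. Their part in the Slc16 values was not tested.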

How the data were processed

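RNA of 8 myocardium samples was labelled with Cy3 and run on 1-colour Agilent arrays, per the labels' protocols. The scanner files deposited by the authors hold linear intensity values, background-subtracted within the array, and flags of 0 or 1. The software was Agilent Feature Extraction 11.0.1.1, as the headers and the submitters' processing notes say. The authors' series table holds log2 values whose normalization no source used here gives. Every column had a median of 7.04 and ranked probes as its array did (rank correlation of at least 0.999). The series text speaks of m6A, but series type and header protocol are those of gene expression, so signals were read as transcript levels.

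Control spots were dropped, outlier-flagged spots became missing values, and log2 signals were averaged per probe after subtraction of the array's 75th percentile. Probes well above background on at least 3 arrays were tested (35329 of 39429). RefSeq transcripts (GRCm38.p6) named 27234 probes. limma 3.58.1 (R 4.3.3) fitted genotype as the only term, two-sided, with Benjamini-Hochberg adjustment across all tested probes and a threshold of 0.05, and was checked on simulated data. The simulated noise was independent between probes and arrays, without slide, scan day or replicate effects, so the check does not cover these. Gene lists were read through the brightest probe per gene. Named genes were all member probes, the 3 members of each list with the smallest p, and the 5 genes most like each called member and Slc16a1, without predicted genes and clone names. Ldha, Ldhb, Bsg and the marker genes were named outside that rule. The members and lists were chosen with earlier results of these data known.

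Separate animals are not stated, and p-values then cover only the spread among these samples, which may be technical. The source names number NPRA+/+ replicates 1, 2 and 3 all as 1, and replicates 4 and 5 as 2 and 3. The NPRA+/+ arrays may thus come from fewer sources than there are arrays. With arrays of the same source name number averaged, Slc16a7 and Slc16a14 were each at an adjusted p of 0.0678 (limma). Samples of the 2 genotypes with equal numbers deviated together, with correlations of 0.63, 0.28 and 0.36 by repetition number and 0.35, 0.12 and 0.30 by source name number, so both were run as blocks. Other alternatives were quantile and median scaling, normexp (offset 50, on the median spot signal), the series table, filters, slide, scan day, averaged arrays, another variance model and leaving out each array. Slide was read from the scan time, arrays with the same scan time being taken as 1 slide. Leaving out replicate 1 of both genotypes and quantile normalization on scan day 1 were chosen after seeing the data.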

Additional observations from a re-analysis of the deposited data

Results flagged for a closer look

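Of the 14 Slc16 probes, 1 had an array far from the others of the NPRA+/+ group. The critical value used holds for 5 arrays, so it does not cover the NPRA-/- group of 3. The Slc16a1 level of NPRA+/+ replicate 1 was -1.96, with the next NPRA+/+ array at -3.11, a gap that took up 0.763 of the range of the 5 arrays against a critical value of 0.71 (Dixon). Chance flags about 1 in 20 such groups. The same array was scanned on a day of its own and stood apart on the first principal component over all probes.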

How the results depend on the processing

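Slc16a7 kept its negative and Slc16a14 its positive change in each of 23 and 22 alternatives that measured them. Where arrays were left out or averaged this was fixed in advance, as the genotypes did not overlap. The count of Slc16 probes past the threshold, 2, was the same in 1 of 23, without a filter on dim probes. It was 0 after quantile normalization, scaling to the median, normexp, in the deposited table, with probes above background on all arrays, with trend and robust, with source name numbers averaged, with slide or scan day as a block and with quantile normalization on scan day 1. Pairing by repetition number or by source name number, as a replicate block, also gave 0. It was 5 on scan day 1 alone, where 16.9% of all probes passed, and 3 without replicate 1 of both genotypes. Leaving out each array gave 0 to 3, with 3 only without NPRA+/+ replicate 1 (Slc16a1, Slc16a7 and Slc16a14), and 0 without any other. The pathway count, 1 (Tg), was 0 in the same alternatives, 5 on scan day 1 alone, 2 without replicate 1 of both genotypes, and 0 to 4 when each array was left out. The cause was not tested. Among all probes 0.348% passed with all arrays, 11.6% without NPRA+/+ replicate 1 and 0% without any other array. Changes of Slc16a9, Slc16a12, the second probes of Slc16a10 and Slc16a13 and both Slc16a6 probes took either sign across the alternatives. A dim signal limits Slc16a14 and the second Slc16a6 probe.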
